A study of Drosophila melanogaster and Drosophila simulans and Drosophila sechellia with 48 samples.

Results

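F1 hybrid males from the cross of D. simulans females (strain 14021-0251.2) with D. sechellia males (Cousin Island) were profiled at the early pupal and the larval stage, with 3 whole-body pools of 25 males at each stage and 1 array per pool. These 6 arrays, of 48 in the series, were chosen by their labels alone. The sample labels place the early pupal pools at 4 h after puparium formation, while the Methods state 2 h, and both place the larval pools at 96 h after larval emergence. The F1 males of this cross are sterile. Every pool was extracted separately and amplified in 2 rounds, labelled with Alexa647, and hybridised against unamplified mixed-stage RNA of D. melanogaster males (strain 14021-0231.00) labelled with Alexa555, with no dye swap. A value is the log2 ratio of hybrid sample to this common reference, and a change is the early pupal mean minus the larval mean. The question was which genes the hybrids regulate as they enter metamorphosis, and how this transition compares with that of both parents.

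Puparium formation follows a pulse of the steroid hormone ecdysone, under which the wandering larva contracts, its cuticle hardens into the pupal case, and larval tissues such as the gut start to be broken down. Adult structures grow from imaginal discs and histoblasts over the following days. Ecdysone acts through a nuclear receptor that switches on early regulatory genes and then tissue-specific late genes, among them the Eig71E cluster, while the animal stops feeding and lives on its stores.

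The arrays measured 3079 elements on every hybrid array, each the mean of 2 duplicate spots, and 2061 different genes could be named. The array medians lay between -0.07 and 0.09, so that all changes are relative to the middle of each array. The 3 early pupal arrays correlated with each other at r = 0.92 to 0.93 across elements, and larval replicates 2 and 3 at r = 0.93. Larval replicate 1 stood apart: it correlated with larval replicates 2 and 3 at r = 0.76 and 0.77, and with the early pupal arrays at r = 0.74 to 0.78, where larval replicates 2 and 3 reached 0.58 to 0.64. The counts over all genes, and the results of some lists and single genes, are therefore given with all 6 arrays and again without larval replicate 1. Where no second value is given, the value is from all 6 arrays. Of the stage markers, Eig71Ed was the only prepupal gene of 9 listed that was measured and stood 4.89 higher in early pupae on the log2 scale, whereas Fbp1, the only larval marker of 11 listed that was measured, had a change of 0.14 that did not pass the test. A gene was called when limma gave a Benjamini-Hochberg adjusted p under 0.05 over all 3079 elements and the change was at least 1.5-fold. Because whole bodies were used, fewer cells of a type and less RNA per cell cannot be told apart.

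Of the 2061 genes, 194 were higher in early pupal than in larval hybrids (9.41% of genes tested) and 206 were lower (10.0%). Without larval replicate 1, these counts were 319 (15.5%) and 279 (13.5%), and 387 of the 400 genes called with all arrays were called in the same direction. Without larval replicate 2 the counts were 119 and 129, and 242 of the 400 genes were still called. The shares over all genes are the background for the counts of each list, with all arrays or without larval replicate 1. Changes of at least 4-fold were seen for 18 genes that rose and 30 that fell. The median change was 1.12 among the genes that rose and -1.12 among those that fell, against 0.03 over all genes. The 3 early pupal arrays lay wholly above the 3 larval arrays for 330 genes (16.0%) and wholly below them for 307 (14.9%). Among the called genes, the arrays of both stages overlapped for 12 that rose and 15 that fell, and larval replicate 1 alone caused each of these overlaps. The plot of the strongest changes shows the spread of single arrays around these differences.

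**Figure D1:**
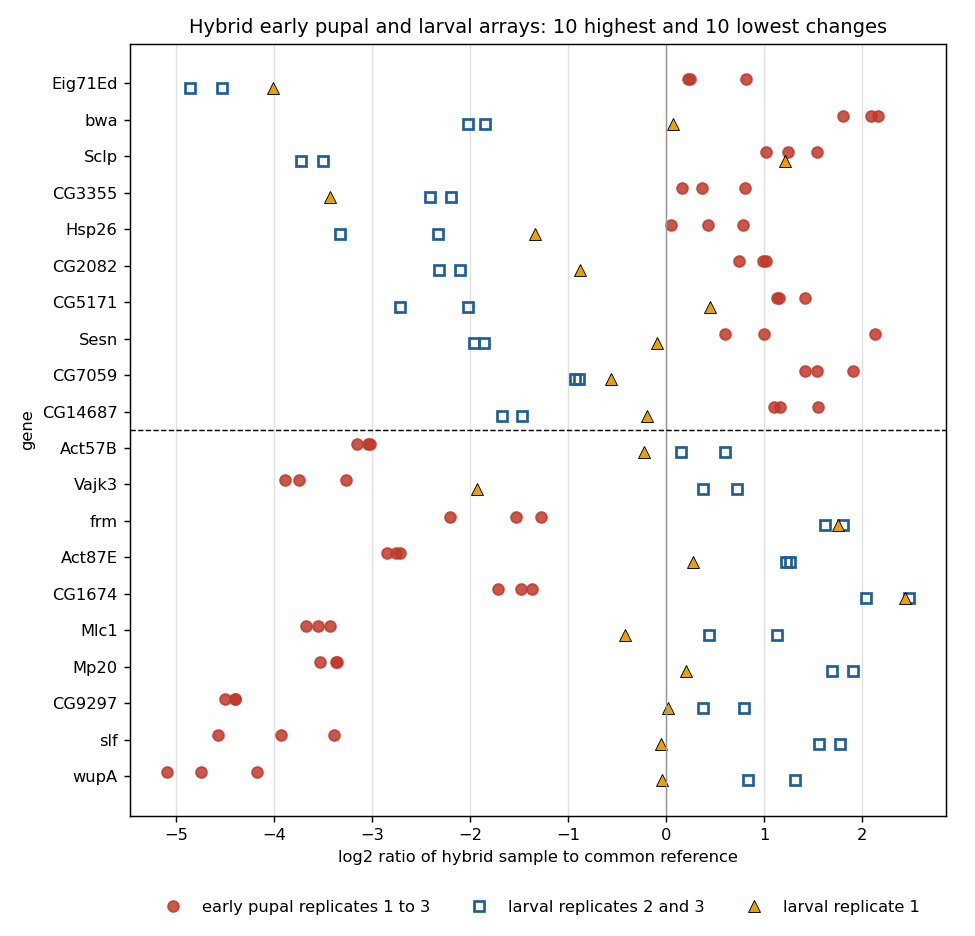
Log2 ratio to the common reference (x axis) on each of the 6 hybrid arrays for the 10 genes with the highest and the 10 with the lowest change (y axis, divided by the dashed line), with circles for early pupal arrays, squares for larval replicates 2 and 3, and triangles for larval replicate 1. For Sclp the triangle, at 1.21, lies among the circles, while for CG1674 and frm it lies among the squares.

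Genes of the contractile apparatus had the lowest list median of all lists. The lists were chosen with earlier results of these data known, so this rank is a description. Of 13 measured genes of the sarcomere and muscle, 11 fell and none rose, with the same counts without larval replicate 1. The list median of the change was -3.00, against 0.03 over all genes. wupA, which encodes troponin I, had log2 ratios of -4.74, -4.18 and -5.09 in early pupae, against -0.05, 1.31 and 0.83 in larvae. It fell by 5.37 (SE 0.36, n = 3 pools per stage, adjusted p = 1.29e-08), the lowest change of the 2061 genes, with a change of -5.74 without larval replicate 1. The stages were far apart on every array, although larval replicate 1 was the lowest of the larvae. Mp20, a calponin-like muscle protein, had -3.53, -3.36 and -3.35 in early pupae and 0.21, 1.90 and 1.69 in larvae, and fell by 4.68 (SE 0.33, adjusted p = 1.41e-08).

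Genes of thin and thick filaments were among those that fell. Mlc1, a myosin light chain, had log2 ratios of -3.68, -3.42 and -3.55 in early pupae, against -0.42, 1.13 and 0.43 in larvae, and fell by 3.93 (SE 0.29). Tm2, a tropomyosin, had -2.55, -2.11 and -2.36 in early pupae and 0.02, 1.26 and 0.70 in larvae, and fell by 3.00 (SE 0.27). In both genes the early pupal arrays were tightly grouped and the larval arrays spread over more than 1 log2 unit. The troponin C gene TpnC73F fell by 3.09, the paramyosin gene Prm fell by 2.50 and the Z-disc protein gene Zasp66 fell by 2.89. The actin genes of larval muscle, Act87E and Act57B, fell by 3.69 and 3.25. Act79B, an actin of adult tubular muscle, fell by 2.41, and Act88F, the actin of the indirect flight muscles, fell by 0.76 (SE 0.23, adjusted p = 0.0251). Actin genes share much of their coding sequence, and cDNA probes may not separate them fully. The genes that were not called were Scp1, a calcium-binding protein of the sarcoplasm (change 0.18), and tn, a ubiquitin ligase of muscle (0.27).

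Several other genes fell as far as the muscle genes. CG1674 had log2 ratios of -1.37, -1.48 and -1.72 in early pupae, against 2.43, 2.47 and 2.04 in larvae, and fell by 3.84 (SE 0.23, adjusted p = 4.00e-09). Here the 3 larval arrays, replicate 1 included, lay close together. CG9297 fell by 4.83 (SE 0.27), and its second element gave a change of -4.52. Lmpt, which encodes a LIM-domain protein, fell by 3.05, and frm fell by 3.40. Glyp, the glycogen phosphorylase that releases glucose units from glycogen, had -3.16, -2.98 and -3.27 in early pupae and -0.52, 0.18 and -0.09 in larvae, and fell by 2.99 (SE 0.22, adjusted p = 3.28e-08).

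Cuticle genes were lower in early pupae as well. slf (schlaff), which is needed for the integrity of the cuticle, had log2 ratios of -4.57, -3.39 and -3.93 in early pupae, against -0.05, 1.78 and 1.56 in larvae, and fell by 5.06 (SE 0.38, adjusted p = 3.54e-08). Vajk3, another cuticle gene, had -3.89, -3.74 and -3.26 in early pupae and -1.93, 0.72 and 0.38 in larvae. It fell by 3.35 (SE 0.49, adjusted p = 0.000104) with all arrays, and its change was -4.18 (SE 0.30) without larval replicate 1, which lay between the stages. Among 9 cuticle protein genes of the list, 5 fell with all arrays, 6 without larval replicate 1, and none rose. Cpr62Bc fell by 2.01, Cpr100A by 1.50, Cpr92F by 1.43 and Cpr97Ea by 0.79, all of the family that carries the Rebers-Riddiford chitin-binding domain. Cpr49Ae was called only without larval replicate 1 (-1.38, SE 0.25, adjusted p = 0.000245), and TwdlT, Twdlalpha and Cpr62Bb had changes between -0.01 and 0.44 that did not pass.

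Many genes of energy metabolism were lower in early pupae. Of 24 measured genes of oxidative phosphorylation, the mitochondrial pathway that makes most ATP, 13 fell with all arrays and 20 without larval replicate 1, and none rose in either fit. The median change was -0.97, and -1.31 without larval replicate 1. These 13 were 6 of 8 ATP synthase genes, 5 of 11 genes of complex I, 1 of 2 of complex II and 1 of 2 of complex IV, while UQCR-Q, the only gene of complex III, was called only without larval replicate 1. The beta subunit gene of the ATP synthase, ATPsynbeta, had log2 ratios of -0.11, 0.07 and -0.33 in early pupae, against 0.94, 1.47 and 1.07 in larvae, and fell by 1.28 (SE 0.23, adjusted p = 0.000663). The alpha subunit gene blw had -0.24, 0.21 and -0.29 in early pupae and 1.07, 1.19 and 1.14 in larvae, and fell by 1.24 (SE 0.21). Neither gene overlapped between stages, and larval replicate 1 lay near the other larvae in both.

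For other subunits larval replicate 1 decided the call. ND-MLRQ of complex I had log2 ratios of -1.70, -1.66 and -1.90 in early pupae and -2.34, -0.16 and 0.01 in larvae, so that larval replicate 1 lay below all early pupal arrays. Its change was -0.92 (SE 0.43, adjusted p = 0.158) with all arrays and -1.68 (SE 0.23, adjusted p = 1.77e-05) without that replicate. COX8 of complex IV had -2.08, -2.12 and -2.12 in early pupae and -2.65, -1.04 and -1.19 in larvae, with the same order of arrays, and its change was -0.48 (adjusted p = 0.361) with all arrays and -0.99 (adjusted p = 0.0019) without larval replicate 1. ND-39 and ND-20 of complex I fell by 1.49 and 1.43 with all arrays. ND-51L2 and ND-24L, with changes of 0.54 and -0.04, were not called in either fit.

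Glycolysis and the tricarboxylic acid cycle followed a similar course, with 9 of 14 genes lower, none higher, and a median change of -1.04. Without larval replicate 1, 10 were lower. Enolase (Eno) had log2 ratios of -1.66, -1.44 and -1.52 in early pupae, against -0.04, 0.60 and 0.43 in larvae, and fell by 1.87 (SE 0.24, adjusted p = 3.34e-05). Phosphoglucose isomerase (Pgi) fell by 1.63, Gapdh1 by 1.60, phosphofructokinase (Pfk) by 1.43 and aldolase (Ald1) by 1.34, and Gpdh1, the glycerol-3-phosphate dehydrogenase, fell by 1.78. In the cycle, fumarase (Fum1) fell by 1.37 and the isocitrate dehydrogenase subunits Idh3b and Idh3a by 0.74 and 0.69. The phosphoglycerate kinase gene Pgk had a change of 0.06, and Idh, Ogdh and muc, a component of pyruvate dehydrogenase, had 0.41, 0.34 and 0.43, none of which passed.

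**Figure D2:**
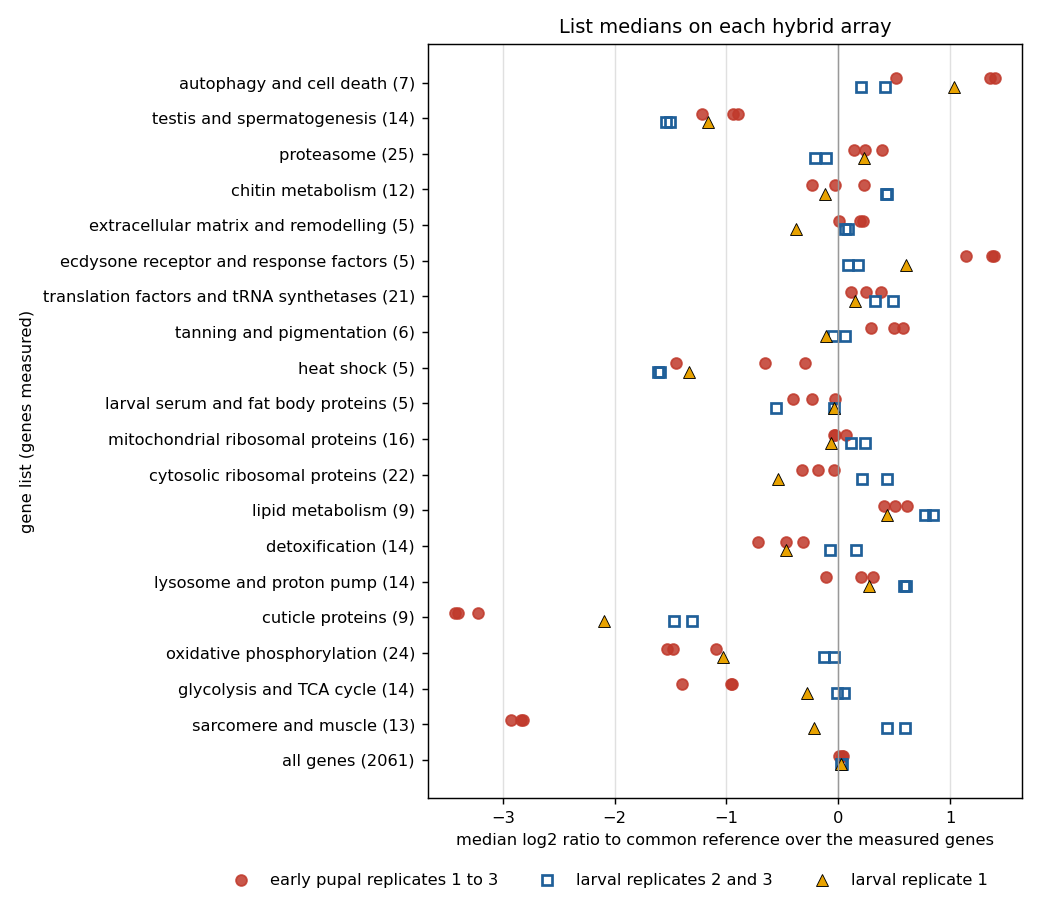
Median log2 ratio to the common reference (x axis) over the measured genes of each list (y axis, number of genes in parentheses) on each hybrid array, with lists of at least 5 genes ordered by their median change and all genes at the bottom. The muscle medians lie between -2.93 and -2.82 on the early pupal arrays and between -0.22 and 0.60 on the larval arrays, while for oxidative phosphorylation larval replicate 1, at -1.03, lies beside the early pupal arrays.

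The strongest rise was that of a late ecdysone gene. Eig71Ed, of the cluster at cytological position 71E that is switched on in prepupae, had log2 ratios of 0.81, 0.24 and 0.23 in early pupae, against -4.01, -4.52 and -4.86 in larvae. It rose by 4.89 (SE 0.34, n = 3 pools per stage, adjusted p = 1.41e-08), and by 5.12 without larval replicate 1, which lay close to the other larvae. Of 5 measured ecdysone receptor and response factors, 2 rose and none fell, where 9.41% of all genes rose and 10.0% fell. Eip63E, an ecdysone-induced cyclin-dependent kinase, had 1.14, 1.39 and 1.37 in early pupae and 0.61, 0.09 and 0.17 in larvae, and rose by 1.01 (SE 0.21, adjusted p = 0.00227).

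The nuclear receptor gene Hr39 had log2 ratios of 1.39, 1.48 and 2.57 in early pupae and 1.59, -0.06 and -0.23 in larvae. It rose by 1.38 (SE 0.41, adjusted p = 0.0237), and rose by 1.96 (SE 0.31, adjusted p = 7.94e-05) without larval replicate 1, which alone overlapped the early pupal arrays. Eip78C, Eip93F and tai, a coactivator of the ecdysone receptor, had changes of -0.11, -0.10 and 0.02. The genes of ecdysteroid synthesis that were measured, Npc1a and mld, had changes of 0.37 and 0.74, and the new glue gene ng3 had -0.08, none of them called.

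The other genes with the highest changes belong to different pathways. bwa, which encodes an alkaline ceramidase, had log2 ratios of 1.80, 2.09 and 2.16 in early pupae, against 0.07, -1.85 and -2.02 in larvae, and rose by 3.28 (SE 0.39, adjusted p = 1.11e-05). Sestrin (Sesn), a stress-induced inhibitor of TOR signalling, had 2.13, 0.60 and 1.00 in early pupae and -0.09, -1.86 and -1.96 in larvae, and rose by 2.55 (SE 0.43, adjusted p = 0.000362). In both genes larval replicate 1 lay between the remaining larvae and the early pupae. The second element of Sesn gave a change of 1.02, which was also called.

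In Sclp the larval arrays disagreed. Its log2 ratios were 1.24, 1.54 and 1.02 in early pupae and 1.21, -3.50 and -3.72 in larvae. It rose by 3.27 (SE 0.82, adjusted p = 0.00845) with all arrays and by 4.88 (SE 0.24, adjusted p = 3.06e-11) without larval replicate 1. Ctl2, a choline transporter-like gene, had -0.02, 0.06 and 0.08 in early pupae and -0.48, -3.12 and -2.77 in larvae, with a rise of 2.16 (SE 0.46) that was 2.98 without that replicate. CG5171 showed a like arrangement, with 0.45 in larval replicate 1 against -2.72 and -2.03 in the other larvae, and rose by 2.66.

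The small heat shock protein gene Hsp26 had log2 ratios of 0.05, 0.78 and 0.42 in early pupae, against -1.33, -3.33 and -2.32 in larvae, and rose by 2.75 (SE 0.42, adjusted p = 0.000157). It was the only one of 5 measured heat shock genes to be called, and Hsp68, DnaJ-1, Hsc70-5 and Hsp60C had changes between -0.46 and 0.71. C1GalTA, which builds the core of mucin-type sugar chains, had 3.05, 2.68 and 3.20 in early pupae and 1.39, 0.37 and 0.58 in larvae, and rose by 2.20 (SE 0.26). CG3355, CG2082, CG7059, CG14687, CG17834 and CG5758 rose by 3.12, 2.68, 2.42, 2.39, 2.13 and 2.12, and the stages did not overlap for any of them.

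Some genes of the extracellular matrix rose, while the matrix list of 5 genes had a median change of 0.11. Loxl1, a lysyl oxidase that crosslinks matrix proteins, is not in that list and is named as 1 of the 15 highest genes. It had log2 ratios of 0.24, 0.65 and 0.20 in early pupae, against -3.03, -1.22 and -1.54 in larvae, and rose by 2.29 (SE 0.35, adjusted p = 0.000143). In this gene larval replicate 1 lay further from the early pupae than the other larvae did, and the change was 1.74 without it. Of 5 genes in the matrix list, Stubble (Sb), a membrane serine protease needed for the eversion of legs and wings, rose by 1.04 (SE 0.28, adjusted p = 0.0144), and Timp, the inhibitor of matrix metalloproteinases, rose by 0.95 (SE 0.21, adjusted p = 0.00325). Ppn, LanA and the integrin gene mew had changes of 0.11, -0.04 and -0.18 and were not called.

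Of 12 genes of chitin metabolism, 1 rose and 2 fell, where 9.41% of all genes rose and 10.0% fell, so that the counts do not set the list apart. knk, which organises chitin in new cuticle, rose by 1.01 (SE 0.26, adjusted p = 0.0111), while Cda4, a chitin deacetylase-like gene, fell by 1.61 (SE 0.29) and Idgf6, a chitinase-like growth factor, fell by 1.24 (SE 0.25). The chitin synthase gene kkv had a change of -0.21 and was not called. Of 6 genes of tanning and pigmentation, 2 rose and 2 fell. yellow-h had 1.50, 1.65 and 2.20 in early pupae and 0.09, -0.21 and -0.25 in larvae, and rose by 1.90 (SE 0.25, adjusted p = 3.45e-05). speck, an arylalkylamine N-acetyltransferase that inactivates dopamine, rose by 1.80 (SE 0.22), whereas yellow-d2 and yellow-b fell by 1.39 and 1.34. The cytochrome P450 gene Cyp301a1, which takes part in cuticle formation, rose by 1.86 (SE 0.28).

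Of 25 proteasome genes, 3 rose and none fell with all arrays, close to the 9.41% of all genes called higher. Without larval replicate 1, 7 rose, where 15.5% of all genes were called higher. The median change of the list was 0.30. Rpn12, Rpn10 and Rpt5 of the regulatory particle rose by 0.77, 0.66 and 0.65. Of 7 genes of autophagy and cell death, 2 rose, where 9.41% of all genes rose. Atg7, the activating enzyme of autophagosome formation, had 2.55, 2.14 and 2.07 in early pupae and 2.14, -0.00 and 0.28 in larvae, and rose by 1.45 (SE 0.41, adjusted p = 0.0175), with larval replicate 1 among the early pupal arrays. Atg18a rose by 0.62 (SE 0.21, adjusted p = 0.0469), and the median change of the list was 0.59. ref(2)P, the adaptor for ubiquitinated cargo, had a change of -0.04, and the apoptosis inhibitor Diap2 one of -0.53.

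Of 14 genes of the lysosome and its proton pump, 5 fell, none rose and 9 were not called, and 7 fell without larval replicate 1. Over all genes 10.0% fell, and 13.5% without that replicate. Vha55, a subunit of the vacuolar ATPase, had log2 ratios of -1.55, -0.57 and -0.47 in early pupae, against 0.77, 1.11 and 0.97 in larvae, and fell by 1.81 (SE 0.28, adjusted p = 0.000147). Vha44, VhaAC45 and Vha26 fell by 0.94, 0.85 and 0.82, and Swim, a cathepsin-like protein, by 0.66. The pump genes Vha68-3 and VhaAC39-2 had changes of 0.03 and 0.05, and the cathepsin genes CtsL1 and CtsB had changes of 0.63 and 0.52, none of them called. The pump also acidifies compartments outside lysosomes, in the gut and Malpighian tubules for example.

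The Jonah serine protease genes of the gut, Jon65Aiv and Jon99Fii, fell by 1.18 (SE 0.31) and 1.02 (SE 0.34), and the third, Jon66Cii, was called only without larval replicate 1. Of 9 genes of lipid metabolism, 3 fell and 1, bwa, rose, where 10.0% of all genes fell and 9.41% rose. The desaturase gene Desat1 had 0.37, 0.67 and 0.30 in early pupae and 1.22, 2.73 and 2.31 in larvae, and fell by 1.64 (SE 0.31, adjusted p = 0.00108), while yip2, a thiolase, and AcCoAS, the acetyl-CoA synthetase, fell by 1.30 and 0.95. Of 14 detoxification genes, Cyp6a13, Cyp4e2 and GstD1 fell by 1.16, 1.08 and 1.04, and Cyp301a1 and Ugt50B3 rose. Jheh2, an epoxide hydrolase of juvenile hormone, fell by 0.92 (SE 0.31, adjusted p = 0.0444), the only call among 5 fat body genes.

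The machinery of translation showed no calls with all arrays. None of 22 cytosolic ribosomal protein genes, 16 mitochondrial ribosomal protein genes and 21 translation factors and tRNA synthetases passed the test, and their median changes were -0.19, -0.08 and 0.00. Without larval replicate 1, RpL22 and RpL4 were lower by 1.07 and 0.91, mRpL18 was lower by 0.73, and LeuRS-m, eIF4E5 and eEF1alpha2 were higher by 0.90, 1.17 and 0.71, with eIF3l lower by 0.71. The cytosolic list is an instance in which larval replicate 1 lay outside both stages, with a median log2 ratio of -0.54, against -0.33 to -0.04 on the early pupal arrays and 0.21 to 0.44 on the other larval arrays.

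Markers of other tissues gave few calls, where 9.41% of all genes rose and 10.0% fell. Of 14 testis and spermatogenesis genes, ocn (ocnus), expressed in late spermatogenesis, rose by 0.97 (SE 0.27, adjusted p = 0.0171), and bol and m-cup were called higher only without larval replicate 1. The testis list had a median change of 0.32, and betaTub85D, the testis-specific tubulin, had 0.33. Both neuron genes (Nca and 5-HT1A), the haemocyte gene crq, both phototransduction genes (Arr1 and Rh2) and the cell cycle gene CycD were not called, with changes between -0.51 and 0.33. No antimicrobial peptide gene and no male accessory gland gene of the lists was measured.

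Larval replicate 1 was not shifted evenly across genes. For each gene its position was placed on a scale where 0 is the mean of larval replicates 2 and 3 and 1 is the mean of the early pupal arrays, over the 598 genes called without it. The median position was 0.57, with quartiles at 0.26 and 0.86, and 348 genes (58.2%) lay above 0.5. The 11 called muscle genes had positions between -0.48 and 0.30, with none above 0.5. In contrast, 17 of 20 genes of oxidative phosphorylation lay above 0.5, with a median of 0.76, and the 10 genes of glycolysis and the tricarboxylic acid cycle had a median of 0.40. All 3 Jonah protease genes lay at 0.80 or more. Eig71Ed lay at 0.13, bwa at 0.51, Atg7 at 0.95 and Sclp at 0.99. The difference in position between lists is a description, since the genes were chosen by the same arrays that set the scale, and what sets this pool or array apart was not tested.

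**Figure D3:**
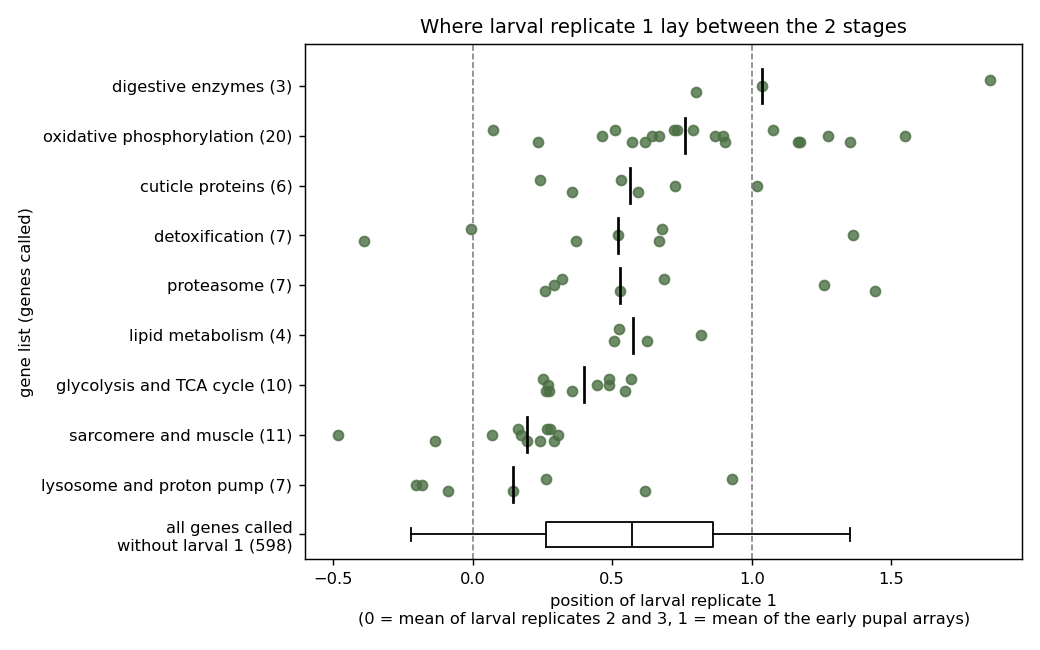
Position of larval replicate 1 (x axis, 0 at the mean of larval replicates 2 and 3 and 1 at the mean of the early pupal arrays) for genes called without it, by list (y axis, number of called genes in parentheses), with vertical bars at list medians and a box for all 598 genes (quartiles, with whiskers at percentiles 5 and 95). Muscle genes lie between -0.48 and 0.30, while 17 of 20 genes of oxidative phosphorylation lie above 0.5.

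Larval replicate 1 was also set against genes chosen without any hybrid array. At least 2-fold higher in early pupae of D. simulans, D. sechellia and D. melanogaster were 50 genes, whose medians in hybrids were 1.37, 1.23 and 1.17 on the early pupal arrays and 0.20, -0.71 and -0.49 on the larval arrays. At least 2-fold lower in all 3 species were 79 genes, with medians of -1.40, -1.01 and -1.32 on the hybrid early pupal arrays and 0.01, 0.95 and 0.67 on the larval arrays. In both sets larval replicate 1 lay between the other larval arrays and the early pupal arrays. Of these genes, 46 of 50 rose and 71 of 79 fell in the hybrids with all arrays, all 50 and all 79 did so without larval replicate 1, and none was called in the opposite direction.

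The levels at the later hybrid stages place the early pupal values in the course of metamorphosis. The median over the 13 muscle genes lay between -2.93 and -2.82 on the early pupal arrays and was -0.23 in late pupae and -0.01 in adults. wupA averaged 0.66 in late pupae and 0.65 in adults. The cuticle list had a median of 1.44 in late pupae and -0.37 in adults, and slf averaged 1.74 in late pupae. Eig71Ed averaged -4.16 in late pupae and -4.38 in adults, close to its larval values, and bwa averaged -1.22 and -0.20. Over all genes called, those that rose had median levels of -0.19, 0.94, 0.11 and 0.13 from larvae to adults, and those that fell had 0.61, -0.78, -0.00 and 0.35. The early pupal level was used in choosing these genes, so the medians are descriptions.

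**Figure D4:**
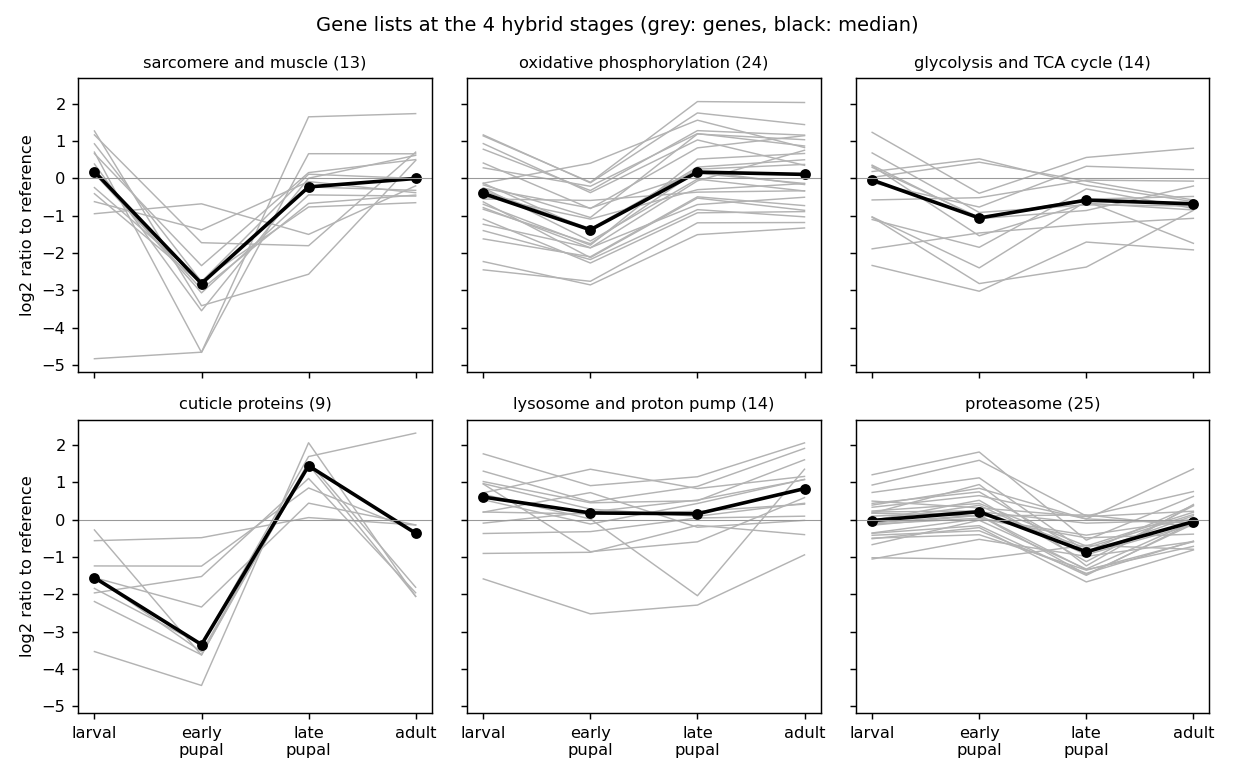
Mean log2 ratio to the common reference (y axis) at the larval, early pupal, late pupal and adult stage of the hybrids (x axis), with a grey line for each gene of 6 lists and a black line for the list median. The muscle and cuticle medians are lowest in early pupae, and the proteasome median is lowest in late pupae, at -0.87.

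Both parents have 1 pool per stage, hybridised to 3 technical arrays. Early pupal arrays 1 and 3 of D. sechellia were near-identical (r = 0.998 across elements) and were averaged first, so that they count once in its changes. Among 1724 genes measured by the same element in hybrids and both parents, 156 rose and 187 fell in the hybrids. Their median changes were 1.09 in hybrids, 1.00 in D. simulans and 1.43 in D. sechellia for the genes that rose, and -1.14 in hybrids, -1.11 in D. simulans and -1.19 in D. sechellia for those that fell. The hybrid medians of the same genes were 1.28 and -1.32 without larval replicate 1. These genes were chosen by their call in hybrids, which favours large changes there, so the medians are descriptions. Of the 156 genes, 150 had a change above 0 in D. simulans and 149 in D. sechellia, and of the 187 genes, 183 and 181 had a change below 0. Across all 1724 genes, the change in hybrids correlated with that in D. simulans at r = 0.85 and with that in D. sechellia at r = 0.80, where all arrays share the reference RNA and genes are not independent replicates. Without larval replicate 1, these correlations were 0.86 and 0.81. The median size of a change was 0.31 in hybrids (0.39 without larval replicate 1), 0.38 in D. simulans and 0.66 in D. sechellia.

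Medians of the change by list are given here for hybrids and both parents. Over the 13 muscle genes they were -3.00 in hybrids, -2.82 in D. simulans and -3.58 in D. sechellia. Over 21 genes of oxidative phosphorylation they were -1.02 in hybrids, -1.20 in D. simulans and -1.67 in D. sechellia, and over 11 genes of glycolysis and the tricarboxylic acid cycle -1.34, -1.06 and -1.45 in the same order. For 23 proteasome genes the medians were 0.27 in hybrids, 0.42 in D. simulans and 0.94 in D. sechellia. These hybrid medians are from all arrays. Over all 24 measured genes of oxidative phosphorylation, the hybrid median was -0.97 with all arrays and -1.31 without larval replicate 1. The median without that replicate was not taken over the 21 genes, so the order of hybrids and D. simulans in this list is not settled. The differences between the medians of hybrids and parents were not tested.

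The change of each gene was tested against that of each parent in 1 limma model, in which hybrid pools supply the whole estimate of error. Each parent has a single pool per stage, so its spread between pools was not measured and is assumed to equal that of the hybrids, an assumption that every SE and p of these differences rests on. Of 1737 genes, 1 passed against D. simulans (0.0576%), 0 against D. sechellia and 0 against both parents in the same direction. The unadjusted p was under 0.05 for 32 genes against D. simulans, 158 against D. sechellia and 5 against both in the same direction. The last count was 10 without larval replicate 1. The SE of such a difference had a median of 0.49 on the log2 scale, so that only large differences could pass. When every array was taken as a replicate, technical and near-identical arrays included, 10 genes passed against both parents in the same direction. Their change in hybrids was higher for 3 and lower for 7, and technical arrays do not measure the spread between pools.

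The gene that passed this test was Cpr100A, a cuticle protein. In hybrids its log2 ratios were -3.43, -3.40 and -3.22 in early pupae, against -2.11, -1.64 and -1.79 in larvae. In D. simulans they were 0.69, 1.10 and 0.85 in early pupae, against -1.58, -1.71 and -1.22 in larvae. The gene thus fell in hybrids, by 1.50, while its change in D. simulans was 2.38, and the difference between hybrids and D. simulans was -3.89 (SE 0.56, adjusted p = 0.00677, under the assumption on the spread of D. simulans pools). In D. sechellia it had -3.88, -3.20 and -3.88 in early pupae and -1.64, -1.24 and -1.28 in larvae, a change of -2.16, from which the hybrids differed by 0.65 (SE 0.56, adjusted p = 0.727). The D. sechellia change counts its near-identical early pupal arrays 1 and 3 once, and so is not the plain mean of the 3 values. At the early pupal stage the hybrid arrays overlapped the D. sechellia arrays and lay below every D. simulans array, and at the late pupal stage the hybrids had 2.13, 1.77 and 1.16, against 1.88, 2.21 and 1.86 in D. simulans.

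yellow-h had another arrangement of values, with a change of 1.90 in hybrids, 1.11 in D. simulans and -0.26 in D. sechellia. Its early pupal log2 ratios were 1.50, 1.65 and 2.20 in hybrids, against 0.66, 0.87 and 0.66 in D. simulans and -0.07, -0.58 and -0.05 in D. sechellia. Here too the D. sechellia change counts early pupal arrays 1 and 3 once. The hybrid arrays lay above all arrays of both parents at this stage, but the difference of the change was not called against either parent. The cuticle gene slf fell by 5.06 in hybrids, and its change was -2.80 in D. simulans and -4.86 in D. sechellia, with early pupal values of -1.25, -1.32 and -1.16 in D. simulans. Its difference of the change was -2.25 against D. simulans (SE 0.77, adjusted p = 0.998 from limma). Against D. sechellia it was -0.19 (SE 0.77, adjusted p = 0.950), and neither was called.

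**Figure D5:**
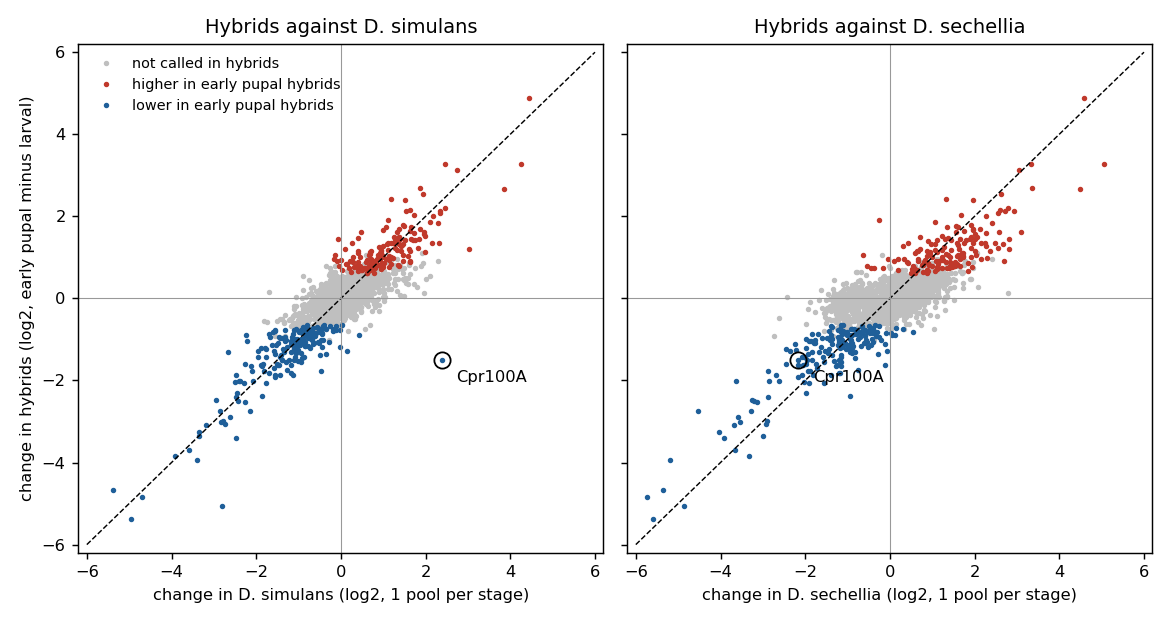
Change from larvae to early pupae on the log2 scale in hybrids (y axis) against D. simulans (left, x axis) and D. sechellia (right, x axis) for 1724 genes, coloured by the call in hybrids, with the dashed line at equal change and Cpr100A circled. Cpr100A lies at -1.50 in hybrids, 2.38 in D. simulans and -2.16 in D. sechellia, and most called genes lie on the same side of 0 in hybrids and parents.

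Called genes lay on every chromosome. On the X, which the hybrid males inherit from D. simulans, 17 of 275 genes rose (6.18%) and 23 fell (8.36%), against 177 (9.91%) and 183 (10.2%) of 1786 autosomal genes, a contrast that was not tested. Of 931 elements without a gene name, 73 were higher and 108 lower. For 86 genes with several elements, 18 were called by the element used, and in 17 of these all elements changed in the same direction. The exception was CG31287, whose elements gave -1.51 and 0.69.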

How the data were processed

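Total RNA of 3 hybrid pools of 25 males per stage was measured on D. melanogaster cDNA arrays, whose probes may bind diverged transcripts less well. The authors removed faint or flawed spots, kept elements measured on all arrays of a group, normalized each array by a lowess fit over space and intensity, and deposited log2 ratios of sample to reference. All 48 value columns were used. Here, both spots of each element gave 1 mean value, and elements were named by the platform annotation (1958 of 3079) or the authors' gene list (190), with 931 unnamed or without a single gene. The first element of a gene was used.

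Limma 3.58.1 in R 4.3.3 was fitted over the 4 hybrid stages, with adult replicates 1 and 2 averaged because the differences between their duplicate spots correlated above 0.5, which left 11 units and 7 residual degrees of freedom. P-values were adjusted over all elements and measure the spread between pools, and precision is bounded by how few arrays there were. The comparison with the parents used 1 mean per parent and stage. By the same rule, early pupal arrays 1 and 3 of D. sechellia and 1 and 2 of D. melanogaster were averaged before their means were taken. The fit was tested on simulated data with known changes. The genes named are the 15 highest and 15 lowest of those called and members of the gene lists, together with the highest and lowest differences from both parents, of which there were none. CG31287 was named after its values were seen. Members and lists were chosen with earlier results of these data known. Alternatives covered merging, blocks, array weights, scaling, single replicates, elements and the methods' t-test.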

Additional observations from a re-analysis of the deposited data

Results flagged for a closer look

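Cpr100A was the only gene of 1737 whose change from larvae to early pupae passed the test of the difference between the hybrids and a parent. That test assumes that D. simulans pools, of which there was 1 per stage, vary like the hybrid pools, and their spread was not measured. The change in hybrids minus that in D. simulans was -3.89 on the log2 scale (SE 0.56, adjusted p = 0.00677 from limma). All hybrid early pupal arrays lay below all hybrid larval arrays, while in D. simulans, with a change of 2.38, all early pupal arrays lay above all larval arrays. Groups of 3 arrays are too small for an outlier test, so larval replicate 1 was not tested in that way.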

How the results depend on the processing

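With 1 array left out at a time, the number of genes higher in early pupal hybrids ranged between 119 (without larval replicate 2) and 319 (without larval replicate 1), and the number lower between 129 (without larval replicate 2) and 279 (without larval replicate 1), against 194 and 206 with all arrays. Array weights, which gave larval replicate 1 a weight of 0.27 and the other arrays 0.85 to 1.58, called 322 higher and 291 lower. No other alternative moved either count by over 1.5 times. The 6 arrays alone, without the late pupal and adult arrays, gave 145 and 161, and 303 of the 400 genes were kept. A replicate block gave 224 and 230, and all but 4 of the 400 genes were kept. The numbers do not pair the samples, since pools were extracted separately and same-numbered deviations correlated at 0.13, 0.23 and -0.06, and not every sample correlated best with its own number. With no merging, and with every technical array of the parents entered as a replicate, 10 genes differed from both parents, against 0 otherwise. These arrays share 1 pool per stage and are not independent replicates. The methods' t-test called 240 higher and 242 lower and was not run for the difference from the parents. Of the 30 genes with the highest and lowest changes, 29 kept their call under every alternative in which they were tested (Hsp26 and Loxl1 were not measured on all 48 arrays and are missing from that alternative), and Sclp lost it on the 6 arrays alone (adjusted p = 0.0559), without larval replicate 2 (0.0536) and without larval replicate 3 (0.0583). Of 92 named genes called with all arrays, 28 lost their call without larval replicate 2 and 22 without early pupal replicate 1. On the 6 arrays alone 20 lost it, and 19 did so without larval replicate 3. No named gene reversed.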
